A study of Homo sapiens with 12 samples.

Results

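WM9 cells adapted to vemurafenib and cobimetinib were compared with WM9 control cells by RNA sequencing, 3 libraries against 3. These 6 libraries were taken by their labels from a series of 12. The other 6 come from Hs294T, and both are established human lines of metastatic melanoma cells that the labels give as BRAF-mutant. The WM9 resistant cells had been exposed to stepwise rising amounts of the drugs, ending at 0.4 µM vemurafenib and 0.4 µM cobimetinib. The WM9 control cells carry the same mutation and went through rising amounts of the solvent DMSO alone. By their labels both groups come from 1 cell line, which was not checked. No source used here says whether the resistant cells are a clone or a pool. The label calls the replicates biological without saying how they were separated, so p-values measure the spread between libraries only. The edgeR tests pool that spread over all 12 libraries of the series. Whether resistant cells still held drug when RNA was taken is not stated. Acquired resistance, drug exposure, separate passage of the cultures and a line of origin other than labelled cannot be told apart.

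BRAF is a kinase that passes growth signals through MEK and ERK to transcription factors in the nucleus. Mutant BRAF keeps this pathway active in many melanomas, and vemurafenib blocks the mutant kinase while cobimetinib blocks MEK one step below it. Melanoma cells kept under these drugs are known to regain growth by reactivating the pathway, by using other growth signals, or by moving away from the pigment cell state. The comparison asks which transcripts differ in level once WM9 cells have acquired resistance to both drugs.

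The deposited table pairs none of its 78932 rows with a gene name. Features are therefore named by row number, counted from 1 below the header, and neither melanoma markers nor known targets of the pathway could be read. Row order was not used to guess names, and no sequence could be tied to a feature. Library totals ranged from 16817256 to 20007218 counts in control and from 17479623 to 22561406 in resistant libraries. Levels are given as CPM, the count scaled to a common library size after adjustment by trimmed mean of M-values (TMM). The scaling factors were 1.10 to 1.37 in control and 0.746 to 0.986 in resistant libraries. A floor of 3 counts corresponded to between 0.126 and 0.230 CPM, which covers counting error only. Some libraries were more alike than their labels say, which bears on the values below. WM9 control libraries 2 and 3 were close to identical. WM9 and Hs294T control libraries correlated at a median of 0.97 across features (range 0.944 to 0.974). That was above the 0.754 to 0.814 between WM9 control and WM9 resistant libraries. The line of origin was therefore not checked, and directions hold for libraries as labelled.

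The 6 WM9 libraries separated by labelled state far more than by replicate. A first principal component held 87.2% of the variance of log2 CPM. Control libraries lay between -146 and -134 on it and resistant libraries between 128 and 150. In the 9216 features that averaged 10 CPM or more over these libraries, 41.7% to 58.9% were at least 2-fold apart in the 9 pairs of a resistant with a control library (median 46.0%). Within groups the share was 0.184% for control 2 with 3, 2.14% and 2.81% for control 1 with these, and 7.68% to 15.8% among resistant libraries. Pearson correlations of log2 CPM across features were 0.754 to 0.814 between states, 0.978 to 0.993 within control and 0.972 to 0.980 within resistant libraries. Features are not independent replicates, so these values describe the libraries.

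**Figure D1:**
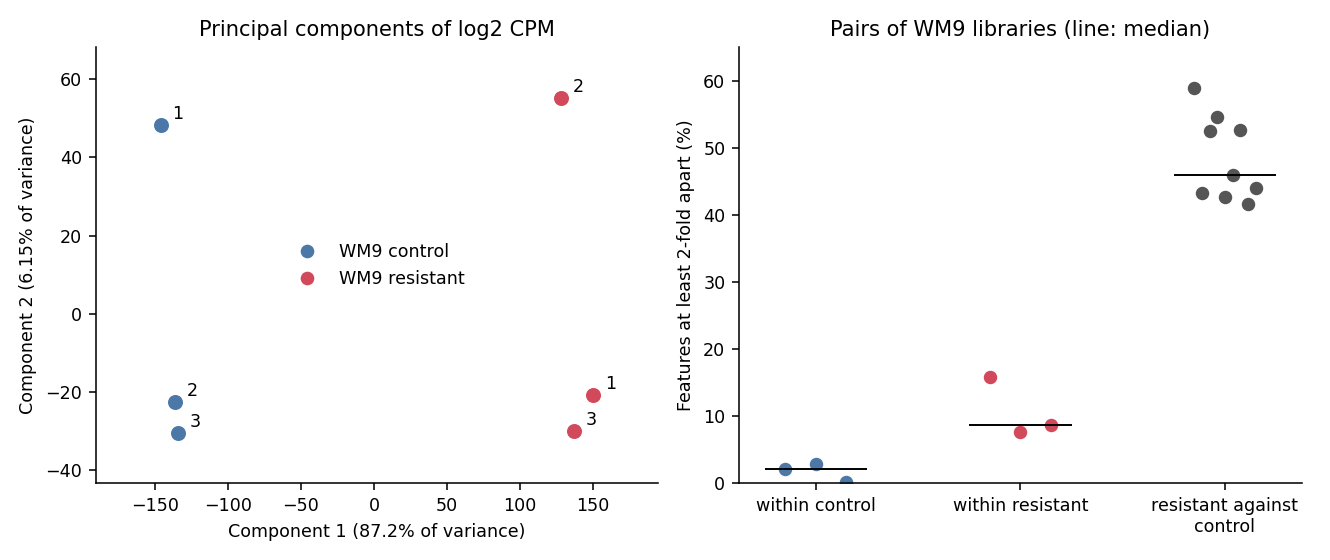
Left, principal components of log2 CPM for the 6 WM9 libraries, with replicate numbers beside the points and the share of variance on each axis. Right, percent of 9216 features at least 2-fold apart in each pair of libraries, with medians as lines; all 9 pairs across states lie above 40%, and all 6 pairs within a state at or below 15.8%.

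Resistant libraries were more spread than control libraries. The median SD of log2 CPM over the 9216 features was 0.361 in resistant and 0.200 in control libraries, and the 95th percentile 0.803 and 0.497. Resistant 1 had 720 features at least 2-fold below the mean of resistant 2 and 3 and 78 above it. Resistant 2 had 478 features above and 331 below its fellow libraries, and resistant 3 had 257 and 105. Control 1 had 109 features above and 88 below the other controls. For control 2 and 3 the highest number was 25. The chi-square of control 2 with 3 averaged 2.84 per feature, where sampling noise gives about 1, against 44.8 and 47.4 for the pairs with control 1 and 77.9 to 130 among resistant libraries. Control 2 and 3 were kept as separate libraries because the labels give them as such; counts that differ by more than sampling noise do not show that they came from separate cultures, and n = 3 for the controls may overstate the independent samples. Summed into 1 library, they gave 5382 features higher and 5734 lower in resistant cells, against 5637 and 5838 with 3 controls.

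Most of the features that passed the low-count filter differed between the states, in nearly equal numbers each way under TMM scaling. Of 18615 features tested, 5637 (30.3%) had higher levels in resistant libraries and 5838 (31.4%) lower levels, together 11475 or 61.6% (edgeR quasi-likelihood test, Benjamini-Hochberg adjusted p below 0.05, n = 3 per group). The balance of directions depends on the scaling: upper-quartile scaling gave 5166 higher and 6478 lower, and DESeq2 gave 5885 and 5874. Without the filter, 52409 features were tested and 24.1% called. The 3 resistant libraries did not overlap the 3 controls in 12434 features, or 66.8%. Of the called features, 11190 were without overlap and 285 had overlapping libraries, while 1244 features without overlap were not called. Each library in turn was left out, and 4655 features were called higher and 4415 lower in all 6 of these fits as well as in the full one. No feature called with all libraries was called in the other direction under any alternative. Of the 7140 features not called, 2555 had an approximate 95% interval of the log2 fold change inside a 2-fold change each way. For the rest a change of that size was not shown to be absent. Of the features tested, 19 had no count in any WM9 library and passed the filter through Hs294T, and 206 had under 10 counts over the 6 WM9 libraries. A fit of the 6 WM9 libraries alone, filtered on these, tested 16676 features and called 5167 higher and 5270 lower.

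Large differences were common. At least 2-fold differences were called in 4620 higher (24.8%) and 4789 lower features (25.7%), and at least 8-fold differences in 1468 higher (7.89%) and 1375 lower (7.39%). Changes under 2-fold were called in 1017 higher and 1049 lower features. The quartiles of the log2 fold change over all tested features were -1.17 and 1.07. The lower group held 0 counts in 152 of the 1468 and in 247 of the 1375, where the fitted size depends on the prior count. Set to their bound from 3 counts over the group, 1453 higher and 1325 lower features were still past 8-fold, with median log2 fold changes of 4.45 and -4.18 (4.59 and -4.64 as fitted). The single libraries were alike in this. Against the mean of the controls, the median log2 difference of the 8-fold higher features was 3.87, 3.84 and 3.70 in resistant 1, 2 and 3. For the 8-fold lower features it was -3.53, -3.38 and -3.45. These features were chosen by the same libraries, so these medians describe their evenness and not their size.

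**Figure D2:**
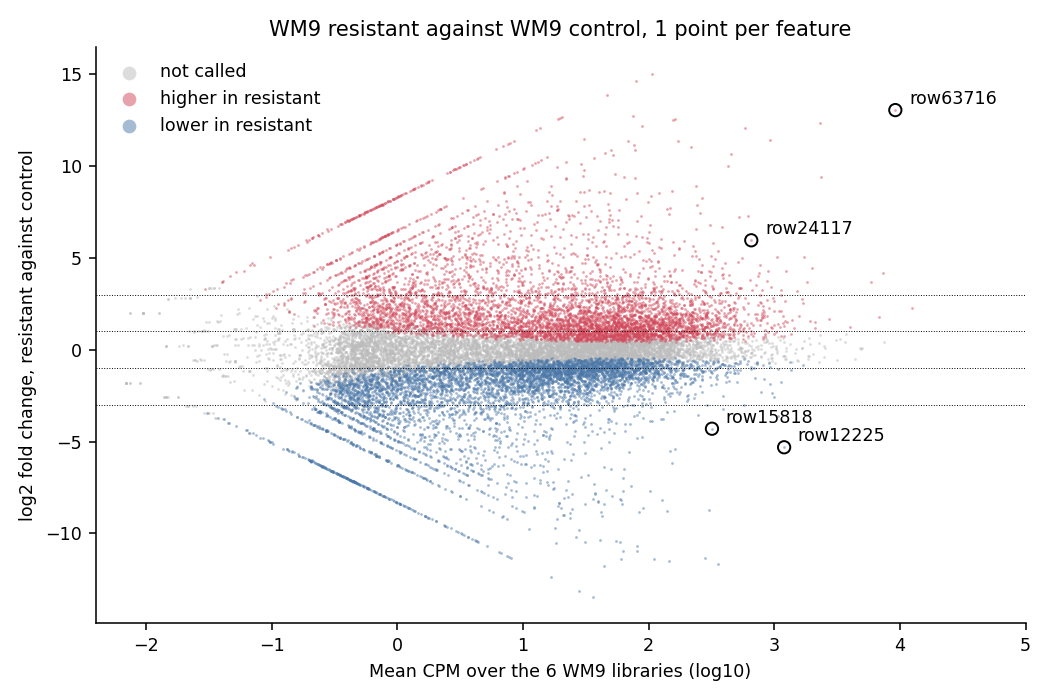
Log2 fold change of resistant against control (vertical) by mean CPM over the 6 WM9 libraries (horizontal, log10), 1 point per feature; the 19 features with no WM9 count are not drawn. Dotted lines mark 2-fold and 8-fold changes, circles the 4 named features, and the slanted rows of points at the left are features with few or 0 counts in 1 group.

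Direction varied with abundance: more features were called higher than lower at 100 CPM and over, and more lower than higher under 10 CPM. Of 2165 features with a mean of 100 to 1000 CPM over the 6 libraries, 1026 (47.4%) were higher and 371 (17.1%) lower. Of the 97 features at 1000 CPM and over, 41 were higher and 8 lower. Between 10 and 100 CPM the numbers were even, with 2276 higher and 2280 lower of 6954. Between 1 and 10 CPM, 1522 (28.5%) were higher and 1923 (36.0%) lower of 5349, and below 1 CPM 772 and 1256 of 4050. CPM is not corrected for transcript length, so the classes rank counts and not molecules. The same split at 100 to 1000 CPM was 44.3% higher and 21.4% lower under upper-quartile scaling, which shifted the median log2 fold change of all features from -0.09 to -0.24. With 1 WM9 library left out, the share at 100 to 1000 CPM ran from 38.4% to 49.6% higher and from 11.3% (without control 2) to 18.7% lower. Between 1 and 10 CPM the gap nearly closed, at 29.5% higher and 30.6% lower without control 1. It was 27.7% and 30.1% without resistant 1, and 27.9% and 30.2% without resistant 3. Without control 2, control 3 and resistant 2 it stayed wide, at 25.4% and 33.8%, 26.2% and 34.4%, and 26.9% and 37.5%. At least 8-fold changes reached 12 higher and 2 lower features at 1000 CPM and over, and 152 and 23 at 100 to 1000 CPM. They were 394 higher and 602 lower below 1 CPM, where 288 had 0 counts in 1 group.

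**Figure D3:**
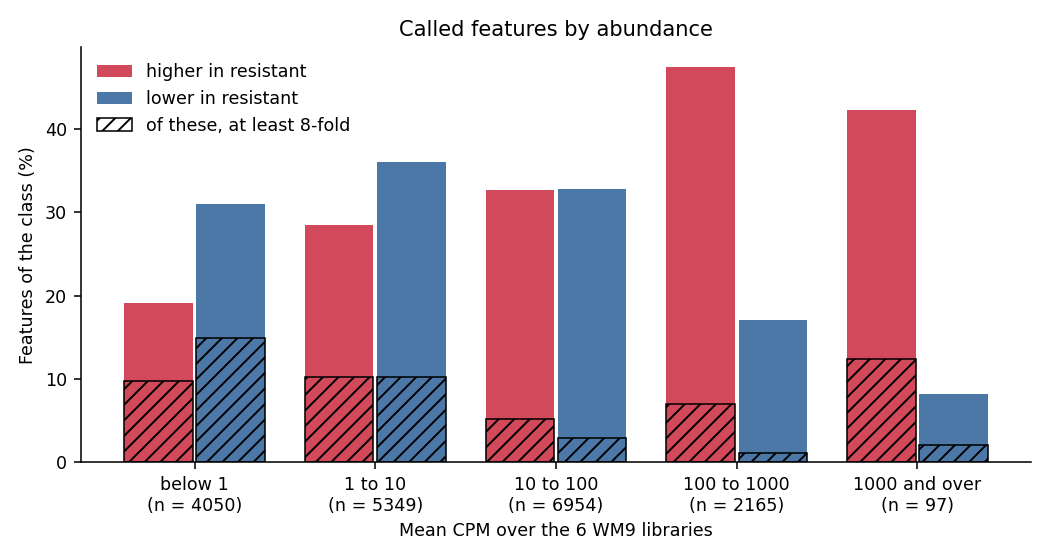
Percent of features called higher (red) and lower (blue) in resistant libraries, by class of mean CPM over the 6 WM9 libraries, with the number of features in each class. Hatched parts are at least 8-fold changes; the share higher exceeds the share lower at 100 CPM and over, from 47.4% against 17.1% at 100 to 1000 CPM, and lies below it under 10 CPM.

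The called features also held much of the counts in the libraries. Features called higher held 22.8%, 23.7% and 24.4% of the counts in control 1, 2 and 3, and 60.4%, 58.0% and 57.9% in resistant 1, 2 and 3. Features called lower held 33.3%, 30.3% and 29.3% in the controls and 6.70%, 10.2% and 8.82% in the resistant libraries. The 1468 features at least 8-fold higher accounted for 1.06% ± 0.02 of control counts and 15.1% ± 1.65 of resistant counts (SD, n = 3 each). The 1375 features at least 8-fold lower held 3.50% ± 0.248 and 0.118% ± 0.0202 (SD, n = 3 each). These shares are a description, since the same libraries made the calls. The 7140 features not called held 45.2% ± 1.41 of control and 32.5% ± 0.782 of resistant counts (SD, n = 3 each). Their share is of raw counts and falls where other features take more, while the call is on scaled values.

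Counts lay in fewer features in the resistant libraries, though an exact permutation test of 3 against 3 libraries cannot go below p = 0.1. A share of 50% of a library's counts was held by 1036, 814 and 795 features in control 1, 2 and 3, and by 503, 748 and 620 in resistant 1, 2 and 3. The groups did not overlap (mean ± SD of 881.7 ± 134 and 623.7 ± 123, n = 3 each). The exact permutation test, two-sided, gave p = 0.1. The 100 most abundant features held 17.9%, 20.3% and 20.5% of the counts in the controls and 27.2%, 22.1% and 23.3% in the resistant libraries, again without overlap (two-sided exact permutation p = 0.1, n = 3 per group). Control 1, with the most features to reach 50% of its counts, and resistant 1, with the fewest, lay at the ends of both measures. The difference in the number of features holding 50% of the counts was -258 with all libraries and -180.8 without control 1. In Hs294T the groups overlapped, with 903, 611 and 787 features in control 1, 2 and 3 and 661, 703 and 693 in resistant 1, 2 and 3.

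**Figure D4:**
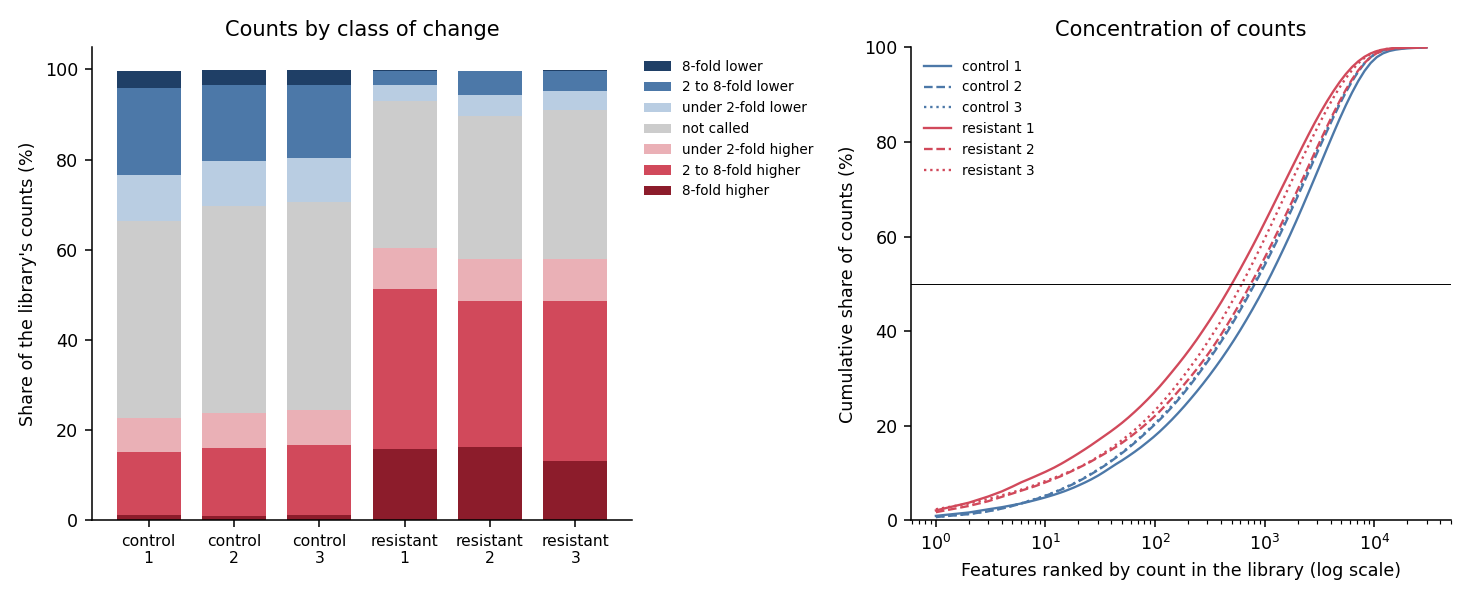
Left, share of each WM9 library's counts (percent) in features grouped by direction and size of the called change; red classes take 57.9% to 60.4% in resistant and 22.8% to 24.4% in control libraries. Right, cumulative share of counts over features ranked by count (log scale), with a line at 50% that resistant libraries (red) cross at 503 to 748 features and control libraries (blue) at 795 to 1036.

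The most abundant features were partly exchanged. Of the 100 most abundant in control by mean CPM, 45 were also among the 100 most abundant in resistant libraries. Of the control list, 24 features were lower in resistant cells, 12 higher and 64 not called. Of the resistant list, 67 were higher, 0 lower and 33 not called, and 22 of them were at least 8-fold higher. A list of the highest features in one group favours features that are higher there, so these counts describe the lists and do not test a direction.

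The number of rows with any count was lower in resistant than in control libraries on average, but the groups overlapped. At an equal depth of 16817256 counts, 35831, 30116 and 29592 rows were expected in control 1, 2 and 3 and 28304, 30268 and 26638 in resistant 1, 2 and 3. The difference of -3443 rows did not exceed the spread between libraries (two-sided exact permutation p = 0.3, n = 3 per group), and it was -1451 without control 1. Control 1 also held 0.381% of its counts in rows too low to test, against 0.118% to 0.199% in the other 5 libraries. The part of this in the row numbers was not tested.

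A smaller set of features was present in one state and nearly absent from the other. A feature was taken as on in a state when each of its 3 libraries reached 10 CPM, and as off when none exceeded 1 CPM. By these cutoffs 162 features were on in resistant only and 136 on in control only. Of the 162, 24 had a mean of at least 100 CPM in resistant libraries, and the highest reached 1848 CPM. Of the 136, 18 had at least 100 CPM in control libraries, with a highest mean of 712.6 CPM. The off state was seldom empty: 12 of the 162 had 0 counts in all 3 controls and 6 of the 136 had 0 counts in all resistant libraries. The off libraries together held a median of 13 and 11 counts per feature. Between the control groups of WM9 and Hs294T, only 4 features met the same cutoffs, against the 298 between WM9 states. Over all 78932 rows, most of them scarce, 812 had counts in every resistant library and none in the controls, and 1460 the reverse.

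In each direction 2 features were named: the one with the largest difference in CPM, and the one with the largest fold change among features at 10 CPM or more in each of the 6 libraries. The second rule leaves fold changes that do not rest on low counts, and it chose from 2389 features higher and 1453 lower. All 4 were picked for size in these libraries, so their size is that of extremes. SE below is the absolute log2 fold change divided by the square root of its F statistic. It is approximate, and the SE of a difference between lines need not follow from the SEs of each line.

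Row63716 had the largest rise in level. It stood at 2.69, 1.89 and 1.90 CPM in control 1, 2 and 3 (64, 42 and 35 counts) and at 27940, 17350 and 9943 CPM in resistant 1, 2 and 3. All resistant libraries were high, with resistant 1 the highest and resistant 3 the lowest, and no control reached 3 CPM. It went from rank 12320 to rank 2 by mean CPM and took 1.52% of the resistant counts on average. The log2 fold change was 13.05 (SE 0.57, edgeR adjusted p = 6.25e-10), the 6th largest in size of all features tested. The Hs294T libraries also rose, from 1.77 ± 0.24 to 2865 ± 479 CPM (SD, n = 3 each; edgeR adjusted p = 1.56e-09). The log2 fold change in Hs294T minus that in WM9 was -2.39 (SE 0.53, edgeR adjusted p = 0.00354).

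Row24117 had the largest fold rise among features well measured in every library. Its levels were 16.6, 21.9 and 23.8 CPM in control 1, 2 and 3 and 1313, 1299 and 1269 CPM in resistant 1, 2 and 3. The resistant libraries were nearly equal and far above the controls. The log2 fold change was 5.96 (SE 0.34, edgeR adjusted p = 4.32e-09), from 20.8 ± 3.71 to 1294 ± 22.6 CPM (SD, n = 3 each). Hs294T showed a rise from 10.9 ± 4.17 to 200.9 ± 29.2 CPM (SD, n = 3 each; edgeR adjusted p = 6.06e-08). Hs294T minus WM9, the log2 fold changes differed by -1.76 (SE 0.39, edgeR adjusted p = 0.00346). Tested against a 2-fold difference, the adjusted p was 0.0597.

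Row12225 showed the largest loss in level. Controls 1, 2 and 3 held 1977, 2599 and 2446 CPM, and resistant 1, 2 and 3 held 68.3, 63.5 and 45.6 CPM. It went from rank 17 to rank 3817 by mean CPM, and no resistant library came near a control. The log2 fold change was -5.31 (SE 0.30, edgeR adjusted p = 4.03e-09). Hs294T showed a fall from 2536 ± 411 to 229.5 ± 32.8 CPM (SD, n = 3 each; edgeR adjusted p = 1.1e-07). The fall was smaller there, with a log2 difference of 1.84 for Hs294T minus WM9 (SE 0.36, edgeR adjusted p = 0.00133).

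Row15818 had the largest fold loss among features with at least 10 CPM throughout. It held 582.6, 645.9 and 598.2 CPM in control 1, 2 and 3 and 24.0, 36.7 and 31.9 CPM in resistant 1, 2 and 3. The controls were close to each other and the groups stood far apart. The log2 fold change was -4.30 (SE 0.29, edgeR adjusted p = 2e-08). The Hs294T libraries fell as well, from 627.1 ± 211 to 19.7 ± 0.86 CPM (SD, n = 3 each; edgeR adjusted p = 7.39e-09). No difference between the lines was shown for this feature, with a log2 value of -0.69 for Hs294T minus WM9 (SE 0.36, edgeR adjusted p = 0.157).

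**Figure D5:**
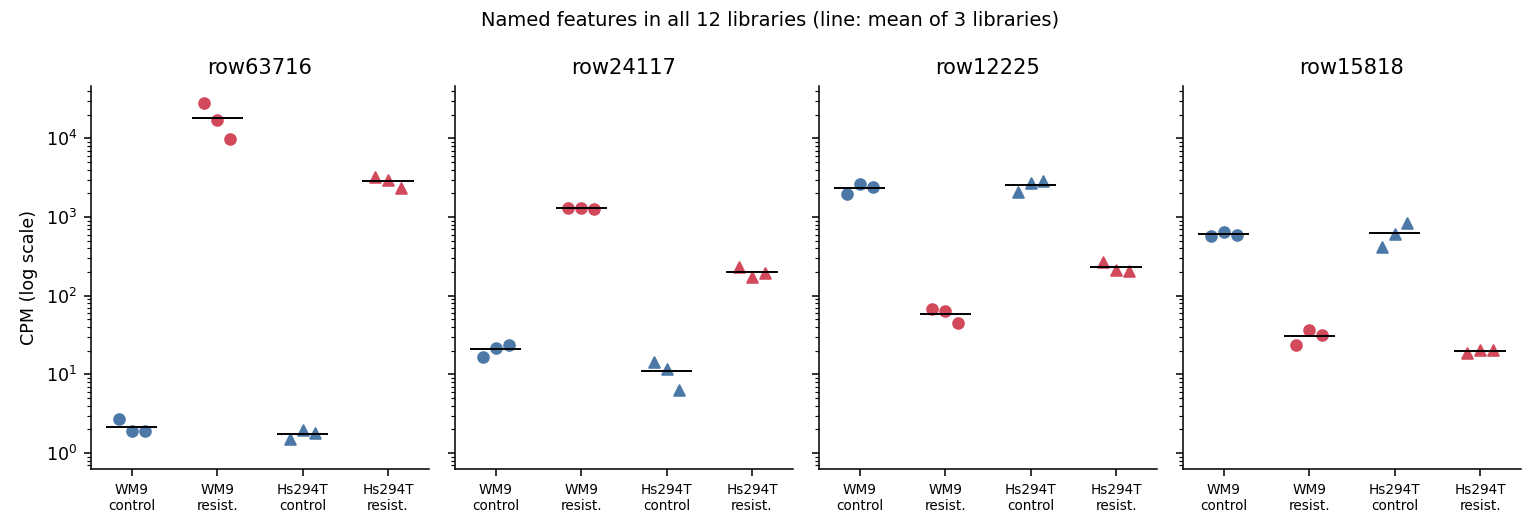
CPM (log scale) of the 4 named features in each of the 12 libraries, with circles for WM9, triangles for Hs294T, blue for control, red for resistant and lines for the mean of 3 libraries. For each feature the 3 WM9 resistant points lie apart from the 3 WM9 control points, and the control groups of the lines lie close together.

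The largest WM9 differences were next compared with Hs294T. Of all tested features, 24.9% were called higher and 24.9% lower in Hs294T. Of the 1468 features at least 8-fold higher in WM9, 1057 (72.0%) were also called higher in Hs294T, 63 (4.29%) lower and 348 not called. Of the 1375 at least 8-fold lower, 872 (63.4%) were called lower in Hs294T, 135 (9.82%) higher and 368 not called. The effect differed between the lines in 658 of the higher features (44.8%) and 665 of the lower (48.4%), against 33.3% of all tested features (interaction contrast in edgeR, adjusted p below 0.05). It was smaller in Hs294T, or of the other sign, in 604 of the 658 and 603 of the 665. Over all tested features this held for 5144 of the 6194 whose effect differed, so it is not particular to the 8-fold features. Features picked for a large effect in WM9 tend to show a smaller one elsewhere, so this balance was fixed in part by the choice. The control groups were nearly alike, so the interaction also compares the resistant groups with each other. The shared directions are likewise measured from nearly the same baseline, so they are not agreement of independent comparisons.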

How the data were processed

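The authors deposited raw read counts per row for 12 libraries, with no normalization. Per the labels' protocols, the library kit was stranded and for mRNA. STAR 2.7.11b, Subread 2.0.8, featureCounts, fastp 0.24.0, FastQC 0.12.1 and the build GRCh38 appear in the submitters' processing notes. No source used here gives the annotation, the strand setting or the role of each tool. Overlapping, antisense and near-identical features were not told apart.

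All 12 libraries entered 1 fit of 4 groups in edgeR 4.0.16 (R 4.3.3, limma 3.58.1): filterByExpr with a minimum count of 10, TMM, robust quasi-likelihood F tests with 8 residual degrees of freedom, two-sided, adjusted over 18615 features. Values on the log2 CPM scale had a prior count of 2. Groups came from the sample titles. Single values per library were compared by exact permutation. Alternatives were other scalings, filters and thresholds, DESeq2 1.42.0, the WM9 libraries alone, near-identical controls summed, a replicate block and each WM9 library left out. The code was checked on simulated counts. The libraries compared and the classes of features were chosen with earlier results of these data known. In each direction 2 features were named by rule, by the largest CPM difference and by the largest fold change at 10 CPM or more in all 6 libraries, among called features without overlap.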

Additional observations from a re-analysis of the deposited data

Results flagged for a closer look

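The effect differed between WM9 and Hs294T, by the test of the interaction, for 3 of the 4 named features and for many of the features with the largest WM9 differences. For row63716 the log2 fold change in Hs294T minus that in WM9 was -2.39, with values from -2.70 to -1.98 when any WM9 library was left out. For row24117 it was -1.76, and for row12225 it was 1.84. Among features at least 8-fold changed in WM9, the effect differed in 658 of the 1468 higher and 665 of the 1375 lower ones, against 33.3% of all tested features. These features were chosen by their WM9 effect, which fixes the difference in part.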

How the results depend on the processing

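Under the alternatives, all 4 named features kept their direction and an adjusted p below the threshold in the WM9 contrast. Without a low-count filter, 52409 features were tested and 6172 called higher and 6470 lower, together 24.1%, of which 2340 were at least 8-fold higher and 2314 lower. With at least 5 CPM in 3 libraries, 12016 features were tested, of which 2961 were at least 2-fold higher and 2982 lower, and 755 and 600 at least 8-fold. Tested against a 2-fold change, 3299 were higher and 3064 lower. DESeq2 called 5885 higher and 5874 lower. Upper-quartile scaling gave 5166 and 6478, with 44.4% of called features higher. When each library was left out in turn, 5263 to 5694 were higher and 5057 to 6124 lower. Libraries of the same replicate number did not all deviate alike. Deviations from the group means correlated at -0.40 and -0.39 for replicates 1 and 2 and at 0.35 for replicate 3, across 9216 features. Between libraries of unlike numbers the values ran from -0.67 (control 3 with resistant 2) to 0.62 (control 1 with resistant 2). Deviations from a mean of 3 libraries sum to 0, so these signs are not free and cannot show whether replicates were paired. Structure shared across the states under another numbering was not tested. With the replicate block, 5138 features were higher and 5338 lower, and no named feature lost its call. Features below 1 CPM had a median SE of 0.673 on the log2 scale, against 0.258 at 10 to 100 CPM, 0.271 at 100 to 1000 CPM and 0.353 at 1000 CPM and over. How far depth sets these errors was not tested.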

Other observations

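Neighbouring rows of the table tended to move the same way in WM9. Of 7365 adjacent pairs of tested features with both called, 69.2% had the same direction, against 61.9% at 2 places apart, 58.2% at 5, 53.8% at 50 and 50.1% at 1000. The Pearson r of the log2 fold changes was 0.266 for adjacent features and 0.000 at 1000 places apart, across features that share all 6 libraries. The longest unbroken series of called features held 12 that were higher and 18 that were lower, and series of 8 or more numbered 20 and 21. How many such series a shuffled row order would give was not tested. What the row order stands for is not given in the sources used here, and reads shared between overlapping features were not tested.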
